A study of Mus musculus with 36 samples.

Results

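The Hox genes encode homeodomain transcription factors that give cells their position along the head-to-tail axis of the embryo. In the mouse they lie in the clusters HoxA, HoxB, HoxC and HoxD, and paralogue numbers run from 1 (anterior, switched on first) to 13 (posterior, switched on last). Mouse embryonic stem cells hold these clusters under Polycomb repressive complexes, with histone marks of repression and of activation side by side, and mRNA of most members is scarce until differentiation begins. Members were taken as every row of the count table whose symbol is Hoxa, Hoxb, Hoxc or Hoxd followed by a number. This gave 40 rows of 54842, which carry 39 symbols because Hoxd4 has 2 rows, and 39 of the rows are reported. There were 10 rows of HoxA (chromosome 6, 52162417 to 52260880), 10 of HoxB (chromosome 11, 96194316 to 96368256), 9 of HoxC (chromosome 15, 102921103 to 103036852) and 10 of HoxD (chromosome 2, 74668310 to 74765142). These coordinates are from GRCm38 with the GENCODE M21 annotation, which held 38 of these 39 rows.

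Poly(A) RNA was sequenced from 36 libraries of mouse embryonic stem cells, either transfected with LiTEC, a construct used in the study for light-induced targeting, or wild type (WT). All cells grew in serum-free medium with leukaemia inhibitory factor and inhibitors of MEK and GSK3β, and all received doxycycline at 2 µg/ml for 2 days. Cells either stood over blue LEDs for 30 min (lit) or did not (dark), and RNA was taken 0, 1 or 4 h later. The 12 groups had 3 libraries each, replicate 1 in batch 1 and replicates 2 and 3 in batch 2, so that each line had 9 dark and 9 lit libraries. The sources used here do not say whether LiTEC cells were 1 clone, what drives the construct, whether the WT cells are its parent line, or whether replicates were separate cultures. The tests thus weigh a difference against the spread of these libraries alone, and that spread may be technical.

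Library totals ran from 11132970 to 21842256 counts, and the Hox rows summed to 10.6 to 28.6 CPM, which are counts scaled to library size. The ribosomal RNA locus Gm26917 took 8.12% to 16.3% of the counts in 35 libraries and 26.1% in a single library, the third replicate of WT kept dark and taken at 4 h. Leaving out that locus and Gm42418 changed no number of Hox calls. Stem cell markers (Pou5f1, Sox2, Nanog and 7 more) were present in every library, with a summed level of 3272 to 4693 CPM. In dark LiTEC cells 8 of these 10 were called lower and 2 higher than in WT, with a median log2 fold change of -0.21. Over all tested genes 23.7% were called lower and 23.9% higher in the dark. In lit cells 5 of the 10 were lower and 2 higher, with a median of -0.11, beside 21.2% and 22.2% of all genes. Markers of fibroblasts, a cell type with active Hox clusters that is used as a feeder layer, summed to 4.52 to 8.59 CPM in dark LiTEC and 7.18 to 13.7 CPM in dark WT libraries. Of these 12 markers, Lum and Dcn had no count in 34 and 33 of the 36 libraries, while Col1a1, Col6a2, Thy1, Pdgfrb and Acta2 had counts in all 36. Of the 6 tested, Col1a1, Col1a2 and Col3a1 were lower in dark LiTEC cells, by log2 values of -1.50, -3.10 and -3.09, and Pdgfrb was higher, at 0.36. Col1a2 and Col3a1 had means of 0.0933 and 0.0757 CPM in dark LiTEC, against 0.749 and 0.643 in dark WT. They passed the filter on low counts, near 0.600 CPM, chiefly through WT libraries, so they were bound to come out lower. The part of such cells in the Hox values was not tested.

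The proteins share the homeodomain, whose recognition helix enters the major groove of DNA. The stretches below show how alike the coding sequences are for the 7 members that differed between the lines. Each is 54 bases of GENCODE M21 coding sequence, and the capitals mark the 6 codons of the recognition helix core that all 38 annotated members encode.
Hoxb9: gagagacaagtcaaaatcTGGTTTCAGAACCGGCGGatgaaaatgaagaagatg
Hoxc8: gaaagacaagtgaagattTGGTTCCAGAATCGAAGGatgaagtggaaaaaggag
Hoxc9: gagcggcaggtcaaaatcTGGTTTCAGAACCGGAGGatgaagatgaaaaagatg
Hoxc10: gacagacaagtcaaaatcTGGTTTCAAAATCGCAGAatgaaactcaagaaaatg
Hoxc11: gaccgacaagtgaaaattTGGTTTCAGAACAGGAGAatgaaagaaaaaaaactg
Hoxc12: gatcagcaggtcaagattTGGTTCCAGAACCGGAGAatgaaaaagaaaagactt
Hoxc13: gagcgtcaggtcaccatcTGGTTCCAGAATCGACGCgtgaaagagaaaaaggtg

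All 7 genes had the same base at 27 of the 54 positions, and at 11 of the 18 in capitals, so the shared protein core is written with different codons in each gene. The paralogues Hoxb9 and Hoxc9 were the most alike, with 48 identical positions, and Hoxc10 shared fewest, 36, with each of Hoxc12 and Hoxc13. How far reads could be misassigned was looked at with 50-base windows of the annotated transcripts. None of the windows of Hoxc11, Hoxc12 and Hoxc13 occurred in another gene, against 0.233% for Hoxb9, 0.432% for Hoxc8 and 1.44% for Hoxc9. Hoxc10 shared 6.40% of its windows with Hoxc5, because 8.70% of its exon bases are also annotated to Hoxc5 on the same strand. How the counting treated reads in such shared exons is not given in the sources used here, so the Hoxc5 and Hoxc10 values may hold reads of each other. Hoxa7 shared 18.7% with Hoxaas3, an antisense gene, and whether counting used the strand is not given either.

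Hox mRNA was scarce in both lines, and most of it came from the posterior end of HoxC. HoxC gave 71.8% of the Hox counts in LiTEC and 63.0% in WT cells, and its paralogues 9 to 13 alone gave 61.1% and 52.2%. Per kilobase of exon, Hoxc12 (2.51 ± 1.09 CPM per kb, SD, n = 36) and Hoxc13 (2.06 ± 0.751) were highest, and their ranges overlapped. Hoxc10 followed at 0.995 ± 0.460, then Hoxb9 at 0.719 ± 0.316 and Hoxc11 at 0.540 ± 0.371. Hoxd13 led HoxD at 0.406 ± 0.186, close to Hoxc4 at 0.387 ± 0.229. Hoxa7 was the highest reported member of HoxA, at 0.152 ± 0.0845. The lines differed in this order: Hoxc11 was above Hoxd13 and Hoxc4 in LiTEC, at 0.785 ± 0.358 CPM per kb (SD, n = 18), and at 0.296 ± 0.171 in WT it was below Hoxd13 (0.382 ± 0.174) and Hoxc4 (0.361 ± 0.254). Over all 36 libraries, and down to Hoxc4, differences between neighbours in the order were smaller than the SD over libraries, except that between Hoxc13 and Hoxc10.

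Even Hoxc13, the member with the most counts, had a mean of 5.07 CPM, below the median of 9.43 CPM over all tested genes (not scaled by length). Only 10 of the 39 rows had a count in every library. At the other end, Hoxd3, Hoxd12 and the Hoxd4 rows had 3, 3, 2 and 7 counts over all 36 libraries. The filter on low counts, set near 0.600 CPM in 3 libraries, kept 12 rows: Hoxa7, Hoxb9, Hoxc4, Hoxc6, Hoxc8 to Hoxc13, Hoxd10 and Hoxd13. The other 27 rows had means of at most 0.223 CPM. In bulk RNA, fewer cells that express a gene and less of its mRNA per cell cannot be told apart. In the plot of levels by paralogue, Hoxc12, Hoxc13 and Hoxc10 are the 3 highest cells in both lines, and HoxB shows a single bright member, Hoxb9.

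**Figure D1:**
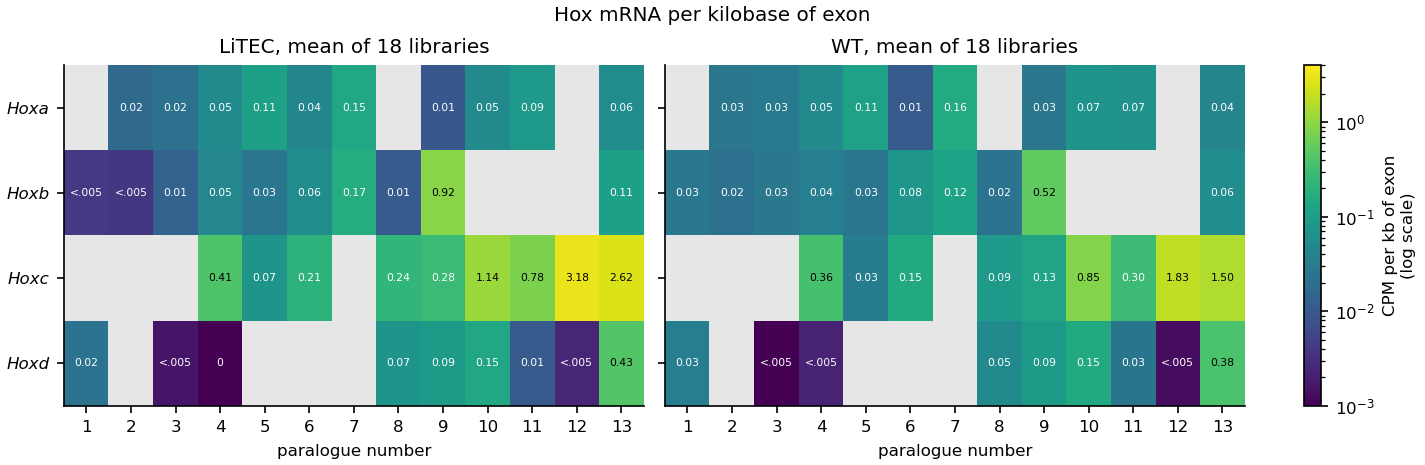
Mean Hox mRNA level in CPM per kb of exon (colour, log scale, with the value in each cell) by cluster (rows) and paralogue number (columns) in LiTEC and WT cells, 18 libraries each. Grey marks numbers that a cluster does not have or that are not reported, and the Hoxd4 cell is the annotated row; Hoxc12 and Hoxc13 were highest in both lines.

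LiTEC cells held more mRNA of posterior HoxC genes and of Hoxb9 than WT cells, without any light. In the dark libraries, 7 of the 12 tested members were called at an adjusted p below 0.05, and all 7 were higher in LiTEC. Over all 18193 tested genes, 47.6% were called in this comparison, 23.9% higher and 23.7% lower, with a median log2 fold change of 0.00. Hoxc8 and Hoxc9 passed the filter chiefly through LiTEC libraries, since 8 and 9 of these but 0 and 1 of the WT libraries were over 0.600 CPM. These 2 genes were bound to differ, and the count of 7 is not evidence about the clusters as a whole. For Hoxc11 the numbers were 18 and 7, so that it would have passed on WT libraries too.

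Hoxc13, known for its role in hair and nail, ran from 4.87 to 6.80 CPM in dark LiTEC libraries (median 5.88) and from 1.56 to 5.29 in dark WT libraries (median 3.79). Of the 9 LiTEC libraries, 7 lay above every WT library. Its log2 fold change was 0.85 ± 0.11 (SE, adjusted p = 1.59e-07 by edgeR). Hoxc12, its neighbour, ran from 1.22 to 4.94 CPM in LiTEC (median 3.60) and from 0.594 to 2.61 in WT (median 1.49). Again 7 LiTEC libraries lay above every WT library, and the low LiTEC values came from batch 1. The log2 fold change was 1.16 ± 0.16 (adjusted p = 3.67e-07).

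Hoxc11, which acts in hindlimb and kidney, had 0.762 to 2.54 CPM in LiTEC (median 1.52) and 0.290 to 0.970 in WT (median 0.551). Its log2 fold change was 1.39 ± 0.26 (adjusted p = 4.54e-05), and 7 LiTEC libraries lay above every WT library. Hoxc10, active in the lumbar spinal cord and hindlimb, had 1.11 to 3.50 CPM in LiTEC (median 2.52) and 0.652 to 2.87 in WT (median 1.25). The lines overlapped widely, with only 3 LiTEC libraries above every WT library. Its log2 fold change was the smallest of the 7, at 0.54 ± 0.18 (adjusted p = 0.0106), and without the batch term it was 0.49 and no longer called (adjusted p = 0.250).

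Among the trunk genes of HoxC, Hoxc9, which sets thoracic identity in motor neurons, had 0.148 to 1.22 CPM in LiTEC (median 0.838) and 0.125 to 0.685 in WT (median 0.290). Hoxc8, which patterns the ribs and brachial motor neurons, had 0.371 to 1.28 CPM in LiTEC (median 0.697) and 0.0624 to 0.455 in WT (median 0.220). For Hoxc8, 7 LiTEC libraries lay above every WT library, and for Hoxc9 6 did. The log2 fold changes were 1.67 ± 0.33 for Hoxc8 (adjusted p = 9.33e-05) and 1.36 ± 0.29 for Hoxc9 (adjusted p = 0.000247).

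Toward the anterior end of HoxC the difference was not called. Hoxc6 had a log2 fold change of 0.60 ± 0.36 (adjusted p = 0.172), with 0.565 ± 0.336 CPM in LiTEC and 0.360 ± 0.213 in WT (SD, n = 9). Hoxc4 had 0.24 ± 0.28 (adjusted p = 0.506), with 0.959 ± 0.645 and 0.808 ± 0.445 CPM. Leaving out replicate 3 of dark WT cells at 1 h gave Hoxc6 a value of 0.94 and a call (adjusted p = 0.0358).

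Outside HoxC, 1 reported member was higher. Hoxb9, a posterior gene of HoxB that acts in the rib cage and forelimb, had 1.16 to 3.20 CPM in dark LiTEC (median 2.54) and 0.742 to 2.10 in dark WT libraries (median 1.51), a log2 fold change of 0.74 ± 0.16 (adjusted p = 0.000298). The remaining tested members were not called: Hoxa7 at -0.35 ± 0.34 (adjusted p = 0.427), Hoxd13 at 0.10 ± 0.29 (adjusted p = 0.802) and Hoxd10 at 0.07 ± 0.55 (adjusted p = 0.929). For Hoxd10, with a mean of 0.273 CPM, an SE of this size leaves a 2-fold difference in either direction within reach.

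**Figure D2:**
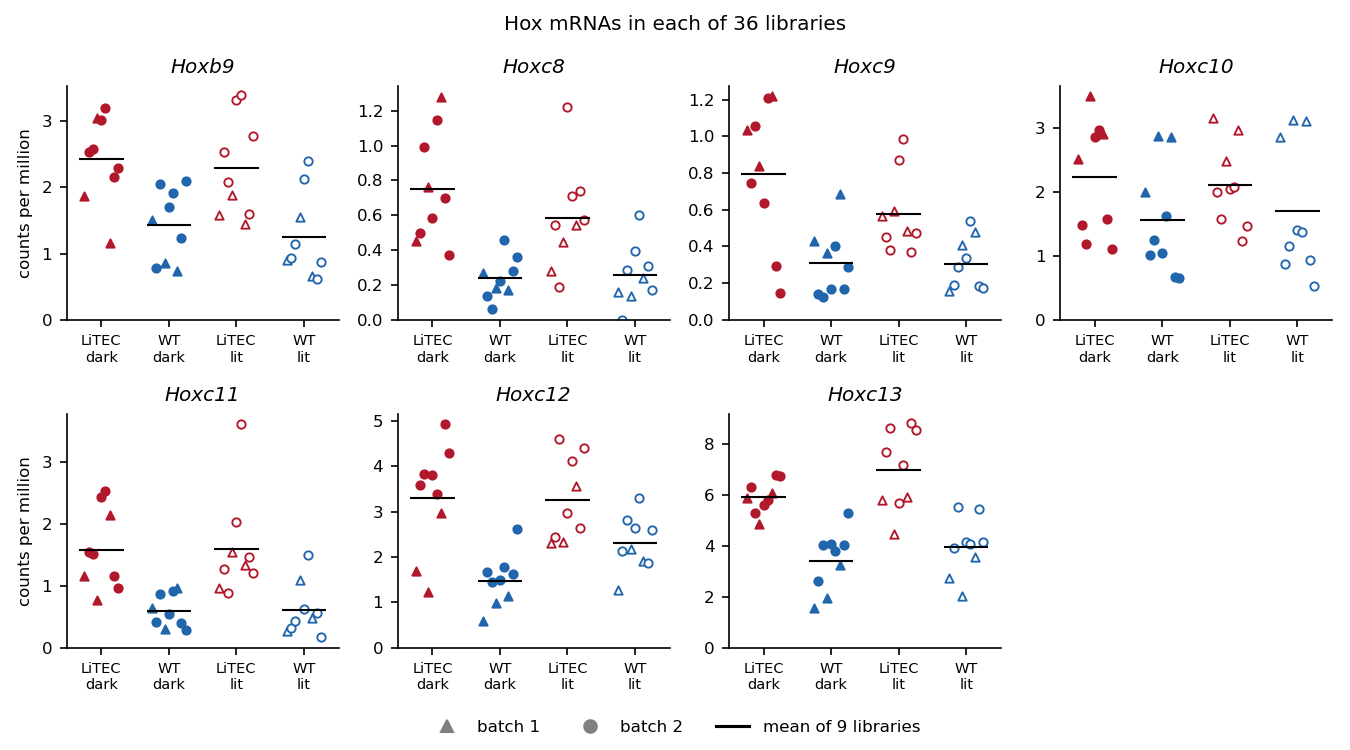
Level in CPM (vertical axis, from 0) of the 7 members that were higher in dark LiTEC cells, 1 point per library, with filled points for dark and open points for lit libraries, triangles for batch 1, circles for batch 2 and a line at the mean of 9. LiTEC and WT ranges overlap for every gene; Hoxc13 comes closest to separating, with 7 of 9 dark and 8 of 9 lit LiTEC libraries above every WT library.

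No tested member had every LiTEC library above every WT library, in the dark or in lit cells, a pattern that 4.23% and 4.07% of all tested genes showed. The same dark libraries, which chose the 7 genes, are given by batch as a description. Hoxc12 had log2 ratios of the mean CPM of 1.11 in batch 1 and 1.17 in batch 2, Hoxc11 of 1.08 and 1.57, Hoxc9 of 1.06 and 1.66, and Hoxc8 of 2.00 and 1.50. Hoxb9 gave 0.97 and 0.69. The batches differed more for Hoxc13 (1.32 and 0.61) and Hoxc10 (0.21 and 0.84). Batch 1 holds 3 dark libraries per line and batch 2 holds 6. In a comparison added after seeing the data, 8 of the 12 members differed between the batches over both lines, against 40.5% of all tested genes, and the batch effect differed between the lines for 0 members (3 at an unadjusted p below 0.05), against 2.72% of genes.

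Lit cells gave a second set of libraries for the same contrast, and 6 of the 7 genes were called again, all higher in LiTEC. Over all genes 43.4% were called, 22.2% higher and 21.2% lower. Hoxc13 had 4.47 to 8.84 CPM in lit LiTEC (median 7.17) and 2.04 to 5.54 in lit WT (median 4.07), a log2 fold change of 0.82 ± 0.11 (adjusted p = 1.88e-07). Hoxc11 had a log2 fold change of 1.49 ± 0.28 and Hoxb9 one of 0.98 ± 0.17, with adjusted p = 4.98e-05 and 1.80e-05. Hoxc8 stood at 1.15 ± 0.36 and Hoxc9 at 0.92 ± 0.32, with adjusted p of 0.00992 and 0.0185. The filter took dark and lit libraries together, and both genes had passed it chiefly through LiTEC libraries. They were thus bound to differ here too, and the count of 6 is not independent support. Hoxc12 had the lowest called value, 0.54 ± 0.15 (adjusted p = 0.00443), with 2.31 to 4.60 CPM in lit LiTEC and 1.27 to 3.29 in lit WT, and without the batch term its log2 fold change was 0.52 and not called (adjusted p = 0.0733). Hoxc10 was not called, at 0.38 ± 0.17 (adjusted p = 0.0798), and its log2 ratio was -0.08 in batch 1 and 0.73 in batch 2.

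Some of these calls rested on single libraries or batches. Without replicate 1 of lit WT cells at 0 h, Hoxc9 was not called in lit cells (0.79, adjusted p = 0.0585). Hoxc10 was called there without replicate 1 of lit LiTEC cells at 1 h (0.49, adjusted p = 0.0226) and without replicate 1 of lit WT cells at 4 h (0.56, adjusted p = 0.0116). In batch 2 alone, Hoxc10 (0.75) and Hoxc4 (0.81) gained a call in lit cells, with adjusted p of 0.00377 and 0.0393. The dark and lit comparisons do not share libraries, but the cells come from the same lines and batches.

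**Figure D3:**
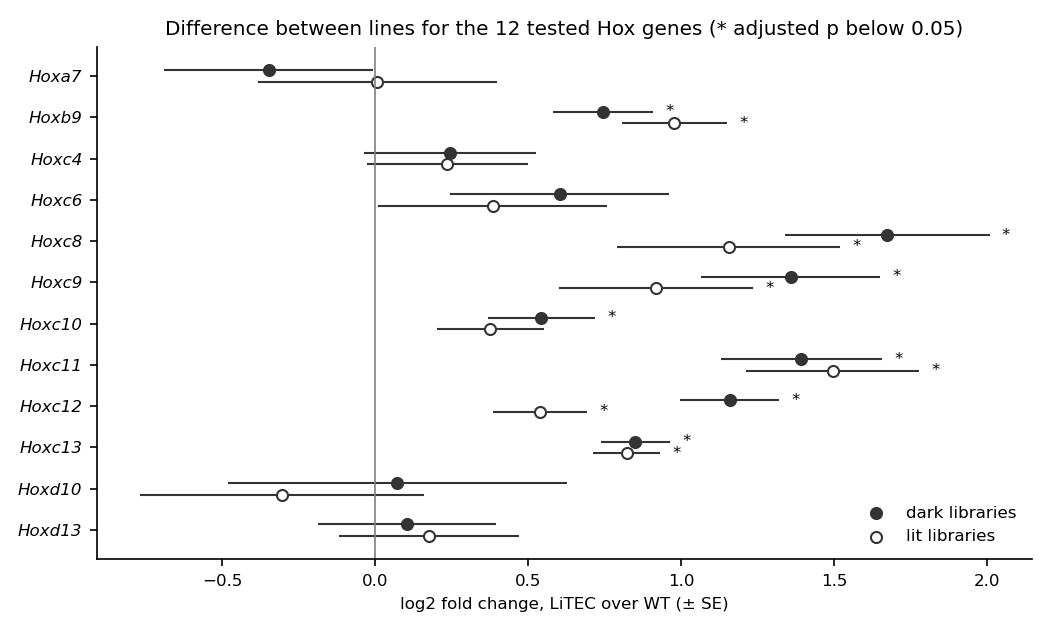
Log2 fold change of LiTEC over WT (horizontal axis, bars ± SE) for the 12 tested Hox genes in dark (filled) and lit (open) libraries, with an asterisk at an adjusted p below 0.05. Hoxc8 to Hoxc13 and Hoxb9 sit to the right of 0 in both sets, from 0.38 to 1.67, and Hoxa7, Hoxc4, Hoxc6, Hoxd10 and Hoxd13 carry no asterisk.

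Summed over its 9 genes, HoxC separated the lines although no single gene did. In the dark the sum was 14.3 to 18.7 CPM in LiTEC libraries (mean 16.5 ± 1.65, SD, n = 9) and 6.90 to 10.8 CPM in WT libraries (8.85 ± 1.42). In lit cells it was 13.6 to 20.6 CPM (16.8 ± 2.00) and 8.11 to 12.6 CPM (10.7 ± 1.43). The groups did not overlap in either state. By time, dark LiTEC groups had means of 15.5, 16.7 and 17.1 CPM at 0, 1 and 4 h, and dark WT groups had 7.71, 9.19 and 9.64 CPM. Within batch 1 the sum was 13.6 to 18.7 CPM in LiTEC and 7.50 to 11.9 in WT, and within batch 2 it was 14.8 to 20.6 and 6.90 to 12.6.

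The other clusters did not separate. Over 18 libraries of a line, the reported HoxA rows summed to 1.47 ± 0.498 CPM in LiTEC and 1.65 ± 0.399 in WT, HoxB to 3.27 ± 0.719 and 2.30 ± 0.666, and HoxD to 1.84 ± 0.770 and 1.77 ± 0.515, with overlapping ranges. Within HoxC, paralogues 9 to 13 summed to 14.2 ± 1.77 CPM in LiTEC and 8.11 ± 1.48 in WT, paralogues 5 to 8 to 1.41 ± 0.442 and 0.721 ± 0.303, and Hoxc4, the only member numbered below 5, had 1.06 ± 0.528 and 0.928 ± 0.652. These sums are descriptions, since the genes were not chosen independently of earlier results.

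The rows that failed the filter were fitted in a model without a filter, in which 11 of the 39 rows were called in the dark (23.5% of 37473 genes were) and 6 of the 39 in lit cells (21% of genes). The 4 rows added in the dark had few counts. Hoxc5 had 47 counts in the 9 LiTEC libraries and 16 in the 9 WT libraries (log2 fold change 1.68 ± 0.50, adjusted p = 0.00488), and Hoxb13 had 32 and 16 (1.46 ± 0.56, adjusted p = 0.0404). In the other direction, Hoxa9 had 8 counts in LiTEC and 25 in WT (-2.11 ± 0.77, adjusted p = 0.0275), and Hoxb2 had 1 and 15 (-2.99 ± 1.13, adjusted p = 0.0376). In lit cells none of the 4 was called, and Hoxc5 had 19 counts in LiTEC and 16 in WT. Hoxb1, an anterior gene that responds to retinoic acid, had 3 counts over 18 LiTEC libraries and 19 over 18 WT libraries. Hoxb8, a trunk gene, had 9 and 19. Neither Hoxb1 nor Hoxb8 was called in the edgeR fit without a filter. The adjusted p was 0.206 and 0.514 in the dark, and 0.147 and 0.978 in lit cells.

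Noncoding genes lie between the Hox genes, and those within 50 kb of a member were listed from the annotation. Of 63 such neighbours, 6 passed the filter, 2 beside HoxA and 4 beside HoxB. Inside HoxB, between Hoxb13 and Hoxb9, the long noncoding RNA gene Gm53 (chromosome 11, 96251105 to 96264868, plus strand) and the microRNA gene Mir196a-1 (96265164 to 96265265, plus strand) lie 295 bases apart. Gm53 had 8909 counts over all libraries, against 3020 for Hoxc13, which led the Hox genes in counts. Its level was 16.7 to 23.1 CPM in dark LiTEC (median 20.6) and 7.33 to 14.4 in dark WT libraries (median 8.37), and the lines did not overlap. In lit cells they did not overlap either, at 15.6 to 24.7 and 8.51 to 11.3 CPM. Of all tested genes, 4.23% in the dark and 4.07% in lit cells had every LiTEC library above every WT library. Its log2 fold change was 1.12 ± 0.08 in the dark (adjusted p = 6.73e-14) and 1.08 ± 0.08 in lit cells (adjusted p = 2.00e-13).

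Mir196a-1 carries 1 of the precursors of miR-196, a microRNA family known to act on Hoxb8 and other trunk Hox mRNAs. Its precursor locus had 0.528 to 2.32 CPM in dark LiTEC and 0.285 to 0.793 in dark WT libraries (log2 fold change 1.24 ± 0.25, adjusted p = 0.000127). In lit cells the values were 0.814 to 2.05 and 0.211 to 0.611 CPM, which did not overlap (1.87 ± 0.26, adjusted p = 4.98e-07). The libraries were made from poly(A) RNA, so these counts are of longer transcripts over the locus and not of the mature microRNA. The family members of the clusters, from RefSeq on GRCm38.p6, share the seed, bases 2 to 8, shown in capitals because it pairs with target mRNAs.
mmu-miR-196a-5p: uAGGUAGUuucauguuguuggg
mmu-miR-196b-5p: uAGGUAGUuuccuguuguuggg

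The first is encoded at chr11:96265187-96265208 beside Hoxb9 and again at chr15:102973365-102973386 between Hoxc10 and Hoxc9, both on the plus strand, and the second at chr6:52230129-52230150 on the minus strand within exons of Hoxa9. Beside HoxA, the long noncoding RNA Halr1 (chromosome 6, 52102949 to 52113684, plus strand) went the other way. It had 2.61 to 8.09 CPM in dark LiTEC and 5.22 to 11.6 in dark WT libraries, a log2 fold change of -0.77 ± 0.15 (adjusted p = 5.94e-05), and -0.83 ± 0.15 in lit cells (adjusted p = 2.67e-05). Genes around HoxA were mostly lower: of 13 tested genes within 1 Mb, Hox genes left out, 76.9% were called lower and 0 higher in the dark, with a median of -0.37. The share lower was 41.1% over the whole of chromosome 6 and 23.7% over all genes, with 23.9% of all genes higher. Around HoxC, of 40 genes 40.0% were lower and 7.50% higher, with a median of -0.10. The shares lower and higher were 37.7% and 20.8% of 53 genes around HoxB, and 45.5% and 18.2% of 11 around HoxD. Hotair, the noncoding RNA between Hoxc12 and Hoxc11, had 2 counts in all libraries together, and Hottip beside Hoxa13 had 0.

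**Figure D4:**
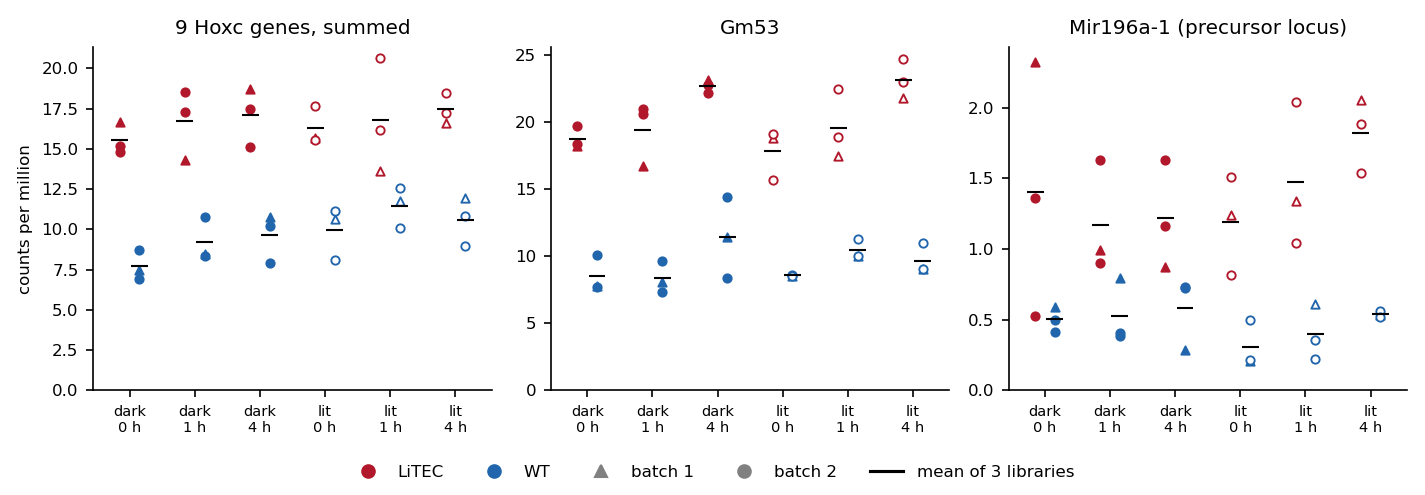
Summed level of the 9 Hoxc genes (left), Gm53 (middle) and the Mir196a-1 locus (right) in CPM, 1 point per library by light state and time, with filled points for dark and open points for lit, red for LiTEC, blue for WT, triangles for batch 1 and a line at the mean of 3. The HoxC sum and Gm53 are higher in every LiTEC library than in any WT library; Mir196a-1 ranges overlap in the dark.

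The machinery that keeps Hox clusters silent or active was read from lists of its subunits, to be set beside the 47.6% of all genes that were called in the dark, 23.9% higher and 23.7% lower. Of 12 genes of Polycomb repressive complex 2 (PRC2), which methylates histone H3 over silent Hox clusters, 3 were higher and 6 lower in dark LiTEC cells, with a median log2 fold change of -0.11 beside 0.00 for all tested genes. Epop, a PRC2 subunit of pluripotent cells, fell by 0.94 ± 0.10 (adjusted p = 3.62e-09), and Ezh2, the methyltransferase itself, fell by 0.27 ± 0.03 (adjusted p = 1.87e-08). For Epop, dark WT libraries ran up to 547 CPM with a median of 250, and its log2 fold change in lit cells was -0.60 ± 0.10. Of 20 genes of Polycomb repressive complex 1 (PRC1), 4 were higher and 7 lower, a share near that of all genes. Phc1 fell by 0.53 ± 0.03, Kdm2b, which brings a PRC1 form to CpG islands, fell by 0.47 ± 0.03, Bmi1 rose by 0.45 ± 0.05 and Ring1 rose by 0.42 ± 0.07. Of 11 genes of the activating MLL and UTX complexes, 4 were higher and 5 lower, among them Ash2l at 0.40 ± 0.04 and Rbbp5 at -0.42 ± 0.03. In lit cells the numbers higher and lower were 3 and 6 for PRC2, 3 and 7 for PRC1, and 3 and 5 for the MLL and UTX complexes. Over all tested genes, 22.2% were higher and 21.2% lower in lit cells.

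Hox proteins bind DNA with TALE cofactors, of which 4 of 8 were higher and 1 lower in dark LiTEC cells. Pknox2 rose by 0.82 ± 0.09 (adjusted p = 5.11e-09), Meis1 by 0.62 ± 0.14, and Pbx3 by 0.44 ± 0.08, while Meis3 fell by 0.79 ± 0.17. Genes upstream of Hox activation in the embryo were lower or not called. Among 9 tested genes of retinoic acid transport and response, 0 were higher and 5 lower, with Crabp1 at -1.09 ± 0.13 and Crabp2 at -0.78 ± 0.12. Among 9 tested regulators of the posterior body, 0 were higher and 6 lower. T, the primitive streak factor brachyury, fell by 3.25 ± 0.24 (adjusted p = 3.90e-13), from 4.68 ± 1.26 CPM in WT to 0.496 ± 0.297 in LiTEC (SD, n = 9). Fgf8 fell by 2.15 ± 0.30, and Cdx2, a homeobox gene that activates trunk Hox genes, fell by 1.71 ± 0.58 (adjusted p = 0.0145) from a level of 0.415 CPM. LiTEC libraries had at most 0.222 CPM of Cdx2 in the dark and 0.126 when lit, below the filter cutoff near 0.600 CPM. Cdx2 thus passed through WT libraries and was bound to come out lower. Other genes of this list were near the cutoff in LiTEC too. Fgf8 had medians of 0.423 and 0.452 CPM in dark and lit LiTEC libraries, against 1.08 to 2.82 CPM in dark WT. T had a median of 0.462 CPM in dark LiTEC. Wnt3a, also called lower, had dark means of 0.266 CPM in LiTEC and 0.588 in WT. The filter thus favoured these genes through WT libraries, and the counts for this list hold genes selected by their WT level. In lit cells 3 cofactors were higher and 1 lower, 0 and 4 genes of the retinoic acid list were, and 0 and 5 of the posterior list. These lit numbers stand beside 22.2% of all tested genes higher and 21.2% lower. Markers of primitive endoderm moved with the line too. Their sum was 8.59 to 16.5 CPM in dark LiTEC and 5.84 to 10.5 in dark WT libraries. Of 5 tested, 4 were higher in the dark (Gata4, Gata6, Pdgfra and Dab2), beside 23.9% of all tested genes. The fifth, Sox7, was lower, at -1.58 ± 0.24 (adjusted p = 1.32e-06). Gata6 had a mean of 0.780 CPM in dark LiTEC, and of 0.391 and 0.420 in dark and lit WT, below the cutoff near 0.600. The filter thus favoured Gata6 through dark LiTEC libraries. In lit cells 3 of the 5 markers were higher and Sox7 was lower, at -1.98 ± 0.23. Their part in the Hox differences was not tested.

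Light left no called Hox difference in either line. Of the 12 members, 0 were called between lit and dark cells at 0, 1 or 4 h. Over all genes the share called was 0.934%, 0.115% and 0.011% in LiTEC and 2.86%, 0.286% and 0% in WT at the same times, so few calls were to be had. At an unadjusted p below 0.05, edgeR gave 1, 0 and 0 members in LiTEC and 2, 1 and 1 in WT, and DESeq2 called 0 at an adjusted p below 0.05 in all 6 comparisons. The largest contrast relative to its error was Hoxc12 in WT at 1 h. There the 3 dark libraries had 0.975 to 1.77 CPM and the 3 lit libraries 2.17 to 3.29. The log2 fold change was 0.94 ± 0.29, with an adjusted p of 0.237. This contrast was picked as the most extreme of 72 light effects and was not called. At 0 h in WT, Hoxc12 had 0.73 ± 0.30 (adjusted p = 0.237) and Hoxc13 0.58 ± 0.21 (adjusted p = 0.151). In LiTEC at 0 h, Hoxc9 had -1.03 ± 0.48 and Hoxc8 -0.98 ± 0.58, with adjusted p of 0.444 and 0.600. In WT at 4 h, Hoxb9 had -0.86 ± 0.34 (adjusted p = 0.518), with 0.742 to 2.10 CPM in the dark and 0.621 to 0.867 in lit libraries.

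The SE of the 72 light effects ran from 0.18 to 1.00 on the log2 scale, smallest for Hoxc13 and largest for Hoxd10. The mean light effect did not differ between LiTEC and WT by this test for any member (0 called, and 0% of all genes). Hoxc12 had the smallest p, with a difference of -0.62 ± 0.22 (unadjusted p = 0.00923, adjusted p = 0.845). No other member was among the 1060 genes with an unadjusted p below 0.05. DESeq2 called 0 members here.

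**Figure D5:**
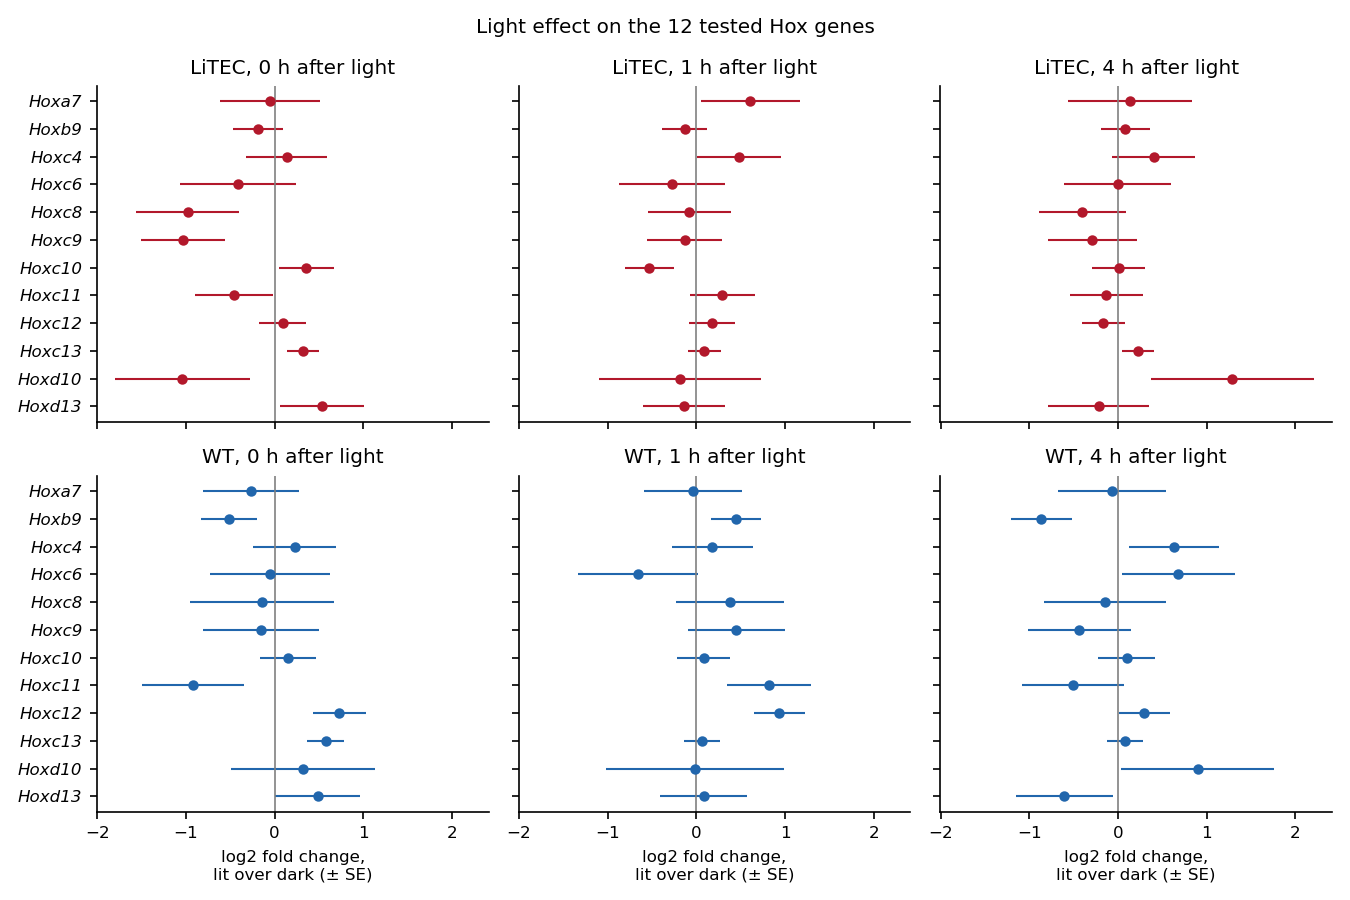
Log2 fold change of lit over dark cells (horizontal axis, bars ± SE) for the 12 tested Hox genes in LiTEC (upper row, red) and WT (lower row, blue) at 0, 1 and 4 h after light, 3 libraries against 3 in each panel. Points scatter on both sides of 0 from -1.04 to 1.29, and none had an adjusted p below 0.05.

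Nor did time in the dark give a called Hox gene, while 5.63% of all genes in LiTEC and 10.2% in WT were called over the 3 times. At an unadjusted p below 0.05 there were 2 of 12 members in LiTEC and 1 in WT, beside 3458 and 4441 of all 18193 genes. Hoxc10 in dark LiTEC came nearest. It had 1.73 ± 0.697 CPM at 0 h, 3.11 ± 0.346 at 1 h and 1.86 ± 0.932 at 4 h (SD, n = 3), with log2 changes from 0 h of 0.93 at 1 h and 0.10 at 4 h. The adjusted p was 0.0588, and it was under the threshold with DESeq2 (0.0354), with a replicate block (0.0370) and without replicate 1 at 1 h (0.0190). In dark WT, Hoxc13 had 2.75 ± 1.25, 3.27 ± 1.15 and 4.19 ± 1.02 CPM at the 3 times (adjusted p = 0.102), and it was called without replicate 3 at 0 h (adjusted p = 0.0240).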

How the data were processed

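The authors deposited raw counts per gene for 36 libraries, made from TruSeq stranded mRNA libraries per the labels' protocols. FastQC, featureCounts and the build mm10 (GRCm38) are named in the submitters' processing notes. Not given in the sources used here are the aligner, strand setting, treatment of multi-mapping reads, annotation release and versions. Members were matched by symbol, and gene positions came from GENCODE M21 by identifier. Genes were kept by edgeR's filterByExpr on the 12 groups (minimum count 10), which left 18193, libraries were scaled by TMM, and 12 group means plus a batch term were fitted to all libraries (23 residual degrees of freedom) with the quasi-likelihood test of edgeR 4.0.16 (R 4.3.3). Benjamini-Hochberg adjustment covered the 18193 genes in each of 11 comparisons, and a gene was called below 0.05. The SE is the log2 fold change divided by the square root of F. CPM use TMM-scaled library sizes. The tests were checked on simulated data with 1 dispersion for all genes and no batch effect. Such a check does not cover rows with batch effects or a larger spread. Results for 1 member and for 1 gene each of the cofactor and retinoic acid lists are not reported here, and they are left out of counts and sums over the members and lists.

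Named genes are every tested or called Hox gene, the member highest per kilobase in each cluster, up to 4 called members of each list, and tested neighbours within 50 kb; a few further rows with low counts were chosen after their values were seen. The members, lists and tests were chosen with earlier results of these data known. Alternatives were DESeq2 1.42.0, RLE size factors, other filters, a replicate block, no batch term, batch 2 alone and leaving out each library, and, after seeing the data, a batch effect for each line and a fit without Gm26917 and Gm42418.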

Additional observations from a re-analysis of the deposited data

How the results depend on the processing

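The number of Hox genes called between the lines was 7 in the dark and 6 in lit cells, and ran from 5 to 11 and from 4 to 8 over the alternatives, with 7 to 8 and 5 to 7 when 1 library was left out. The 11 in the dark came without a filter and with a minimum count of 3, where more Hox genes were tested (39 and 30). The change over time in dark LiTEC gave 1 call (Hoxc10) in place of 0 with DESeq2, without a filter, with a mean of at least 1 CPM, with a replicate block and with a batch effect for each line, and 0 to 1 when 1 library was left out; dark WT gave 0 to 1. The 6 light comparisons and the difference of the light effect stayed at 0 under every alternative run. Values of uncalled genes changed sign: Hoxd13 was -0.12 in the dark and -0.27 in lit cells in batch 2 alone, and Hoxa7 in lit cells was -0.0024 with the replicate block, -0.047 with no batch term and -0.22 in batch 2 alone. With 1 library left out, values ran from -0.077 to 0.26 for Hoxd13 and from -0.25 to 0.76 for Hoxd10 in the dark, and from -0.29 to 0.20 for Hoxa7 and from -0.71 to 0.34 for Hoxd10 in lit cells. Hoxc12 in lit cells lost its call with no batch term (0.52, adjusted p = 0.0733). The cause was not tested. Of 658 values of single genes under the alternatives, 626 kept direction and call. In the pairing check, 197 of 198 same-numbered pairs of libraries deviated together with a correlation over 0.1 (lowest 0.0977), and 36 of 36 libraries were nearest to their own number, a hint from the data and not from the design; beyond batch the replicates share only a number. The replicate block left 7 and 6 calls between the lines. Depth limits all of this: 27 of 39 reported members had too few counts for the filter.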

Other observations

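The 8 members that differed between batches, in a comparison added after seeing the data, went both ways. Hoxd10 (-2.47 ± 0.33 on the log2 scale), Hoxc4 (-1.17 ± 0.19), Hoxc10 (-1.07 ± 0.12) and Hoxc6 (-0.85 ± 0.26) were lower in batch 2, while Hoxa7 (1.20 ± 0.27), Hoxc12 (0.70 ± 0.12), Hoxb9 (0.52 ± 0.13) and Hoxc13 (0.51 ± 0.09) were higher. Neighbouring HoxC genes therefore differed between batches in opposite directions, with Hoxc13 and Hoxc12 on 1 side and Hoxc10, Hoxc6 and Hoxc4 on the other. Hoxc11, between Hoxc12 and Hoxc10, gave 0.16 ± 0.20. Between Hoxc10 and Hoxc6, Hoxc9 gave -0.52 ± 0.22 and Hoxc8 gave 0.23 ± 0.25, neither called, so the sign did not change only once along the cluster. In the difference of the batch effect between the lines Hoxc10 came nearest to a call, at 0.70 ± 0.22 (adjusted p = 0.0843).

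Chromosome 8, which holds no Hox cluster, had a median log2 fold change of 0.27 between the lines in the dark with 61.0% of its 959 tested genes higher, and chromosome 6, with HoxA, a median of -0.14 with 41.1% lower. The medians for chromosomes 2, 11 and 15 were -0.02, -0.03 and -0.02.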
